A study of Homo sapiens with 12 samples.

Results

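The 10 genes described here are NFKB1, NFKB2, RELA and RELB, which encode subunits of the transcription factor NF-κB; NFKBIA, NFKBIE and TNFAIP3, which encode inhibitors of the pathway; and BIRC3, CXCL8 and ICAM1, which are well-known target genes. They were listed by name, with earlier results of these data known, from the 16676 genes measured. All 10 were found and passed the filter on low values (at least 1 TPM, a transcript level scaled by gene length and by the library's total, in 2 or more libraries) that 15256 genes passed, and each reached 1 TPM in at least 5 of the 6 libraries of each medium. They were measured by RNA sequencing in 12 libraries of HCT116, a widely used epithelial line from a human colon carcinoma, prepared with a strand-specific kit. The question behind the design was how the long non-coding RNA SPARCLE, a transcript induced by p53, bears on the response to DNA damage.

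The cells were SPARCLE knockout (KO), SPARCLE over-expressing (OE) or wild type (WT). Each kind was given 1 µM doxorubicin for 48 h or was left in regular medium (control), which made 6 groups with 2 libraries each, described as biological replicates and lettered a and b. Doxorubicin is an anthracycline that stalls topoisomerase II on DNA and leaves double-strand breaks. All groups share the HCT116 background, and every KO and OE culture was compared with the same WT libraries. How the KO and OE lines were made, and whether each is 1 clone, is not given in the sources used here, so p-values measure the spread between these libraries only.

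NF-κB factors are dimers of Rel-homology proteins. RELA pairs mainly with p50, which is processed from the NFKB1 product, in the canonical arm, and RELB pairs with p52, processed from the NFKB2 product, in the non-canonical arm. IκB proteins such as the products of NFKBIA and NFKBIE hold the dimers in the cytoplasm until IκB kinase marks them for degradation, and several of these inhibitors are themselves transcribed by NF-κB. DNA breaks are known to engage the pathway through ATM and the IκB kinase subunit IKBKG.

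Promoter sequences are shown because NF-κB binds κB motifs next to its feedback targets. RefSeq start sites on GRCh38.p14 were found for 8 of the 10 genes, with 12 start sites in all, and the 250 bases before each start were searched on both strands. The 10-letter κB motif lay before 6 of the 12 starts, which belong to NFKB1, NFKB2, NFKBIA, TNFAIP3 and BIRC3. It lay in 9.96% of the 35116 RefSeq promoters of the same length and in 12.1% of the 15871 that belong to genes measured here. The 9-letter palindrome GGAANTTCC, which was added after the windows of CXCL8 and ICAM1 had been seen to lack the longer motif, lay before 4 of the 12 starts, those of NFKB1, NFKBIA, CXCL8 and ICAM1, against 0.826% of all promoters and 0.863% of those of genes measured here. At NFKB1 and NFKBIA both motifs overlap at the same place. Since the palindrome was picked with these windows in view, its shares are a description and no test of enrichment. Neither motif was found in the windows of the 2 RELA starts. A match describes letters in a window and not a bound site.

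Each window is written 5′ to 3′ on the strand of its gene, and capitals mark every match to either motif, overlapping matches joined. The windows of NFKB1 (chr4:102501109-102501358, plus strand), NFKBIA (chr14:35404750-35404999, minus strand), BIRC3 (chr11:102317234-102317483, plus strand), TNFAIP3 (chr6:137867009-137867258, plus strand), CXCL8 (chr4:73740319-73740568, plus strand), ICAM1 (chr19:10270870-10271119, plus strand) and the middle of the 3 NFKB2 starts (chr10:102394328-102394577, plus strand) are as follows.
NFKB1: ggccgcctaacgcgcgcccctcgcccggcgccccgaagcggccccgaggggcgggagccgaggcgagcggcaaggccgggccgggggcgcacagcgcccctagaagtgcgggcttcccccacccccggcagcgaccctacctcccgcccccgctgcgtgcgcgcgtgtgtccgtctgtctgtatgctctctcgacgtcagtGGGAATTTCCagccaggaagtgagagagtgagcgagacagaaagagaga
NFKBIA: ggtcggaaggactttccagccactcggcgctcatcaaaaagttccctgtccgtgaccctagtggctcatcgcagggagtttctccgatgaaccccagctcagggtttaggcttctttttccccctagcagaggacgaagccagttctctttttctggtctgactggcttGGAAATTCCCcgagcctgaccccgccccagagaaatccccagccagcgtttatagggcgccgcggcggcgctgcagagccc
BIRC3: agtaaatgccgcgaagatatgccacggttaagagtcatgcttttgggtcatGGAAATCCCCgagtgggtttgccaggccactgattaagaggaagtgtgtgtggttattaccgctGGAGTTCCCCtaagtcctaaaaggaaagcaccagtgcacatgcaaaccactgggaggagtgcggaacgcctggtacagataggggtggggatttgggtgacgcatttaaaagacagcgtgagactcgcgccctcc
TNFAIP3: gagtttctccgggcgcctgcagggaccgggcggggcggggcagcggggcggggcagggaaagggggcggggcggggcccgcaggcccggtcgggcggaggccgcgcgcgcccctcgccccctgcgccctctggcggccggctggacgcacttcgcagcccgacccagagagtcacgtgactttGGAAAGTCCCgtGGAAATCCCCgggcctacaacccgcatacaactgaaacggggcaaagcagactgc
CXCL8: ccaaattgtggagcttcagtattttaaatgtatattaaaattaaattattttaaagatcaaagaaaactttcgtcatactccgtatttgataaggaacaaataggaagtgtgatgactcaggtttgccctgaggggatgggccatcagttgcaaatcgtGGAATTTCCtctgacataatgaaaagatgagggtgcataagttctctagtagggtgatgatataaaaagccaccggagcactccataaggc
ICAM1: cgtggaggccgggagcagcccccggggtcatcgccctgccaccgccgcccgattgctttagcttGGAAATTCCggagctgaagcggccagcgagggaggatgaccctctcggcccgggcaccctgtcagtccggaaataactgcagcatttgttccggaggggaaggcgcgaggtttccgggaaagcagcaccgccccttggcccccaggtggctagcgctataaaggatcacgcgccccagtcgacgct
NFKB2: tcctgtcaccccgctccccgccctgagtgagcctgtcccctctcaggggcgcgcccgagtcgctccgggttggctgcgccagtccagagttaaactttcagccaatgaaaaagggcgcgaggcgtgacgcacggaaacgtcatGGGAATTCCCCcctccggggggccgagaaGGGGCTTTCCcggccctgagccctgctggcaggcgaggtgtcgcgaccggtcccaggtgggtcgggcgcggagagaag
Among these windows the match nearest to its start was that of NFKB1, 49 to 40 bases upstream, and the most distant was in BIRC3, 199 to 190 bases upstream. In NFKBIA the shared match lay 81 to 72 bases upstream, and the palindrome of ICAM1 lay 186 to 178 bases upstream. The starts are those of RefSeq, and GENCODE begins some of these genes further upstream.

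The libraries held 11237760 to 27588651 reads on the 15182 genes whose whole reads could be recovered from the deposited values, and the 10 genes had between 38 and 4010 reads in any library. SPARCLE stood at 13.5 to 27.3 TPM in the 4 OE libraries, against 0.00873 to 0.145 TPM in all KO and WT libraries, so the KO label could not be checked by its level. Genes of small RNA classes took 51.6 to 59.8% of a library's TPM with doxorubicin, against 50.0 to 53.7% in control medium. The median gene of a library lay between -0.262 and 0.225 log2 units of its mean over the libraries. All 8 epithelial markers were measured, and their summed level was 2790 to 3420 TPM with doxorubicin, against 1110 to 2360 TPM in control medium. Keratin genes led this sum, with KRT19 at 421 to 1850 TPM. Averaged over the 3 lines, doxorubicin minus control was 0.93, 1.11 and 1.02 log2(TPM + 1) units for KRT8, KRT18 and KRT19. The markers outside the keratins did not share this rise: EPCAM was at -0.05, CDH1 at 0.05, CLDN3 at 0.18, CLDN4 at -0.125 and CLDN7 at -0.58. Of 8 leukocyte markers, ITGAM reached at most 1.0 TPM. CD68, which lysosomes of many cells also carry, was 3.83 to 9.42 TPM with doxorubicin, against 13.1 to 43.9 TPM in control medium. The other 6 leukocyte markers were not found among the genes measured. Of 7 fibroblast and endothelial markers, COL1A1 was 1.04 to 6.19 TPM and VWF was 0.128 to 0.373 TPM. The other 5 were not found among the genes measured. The part of these marker shifts in the results below was not tested.

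Doxorubicin against control medium moved the family in both directions. Averaged over the 3 lines, 4 of the 10 genes rose (NFKB1, NFKBIA, NFKBIE and ICAM1) and 4 fell (NFKB2, RELA, TNFAIP3 and BIRC3), at a limma adjusted p under 0.05 on the log2(TPM + 1) scale. Over all 15256 genes tested, 58.0% were called in the same comparison, 32.2% higher and 25.9% lower. The median difference of the 10 genes was 0.17 log2 units and that of all genes 0.09. Relative to the median of all genes, the 8 called genes ran from -1.30 for BIRC3 to 2.18 for ICAM1 and kept their signs. Levels in bulk RNA cannot tell apart a change in each cell and a change in the number of cells that express a gene.

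**Figure D1:**
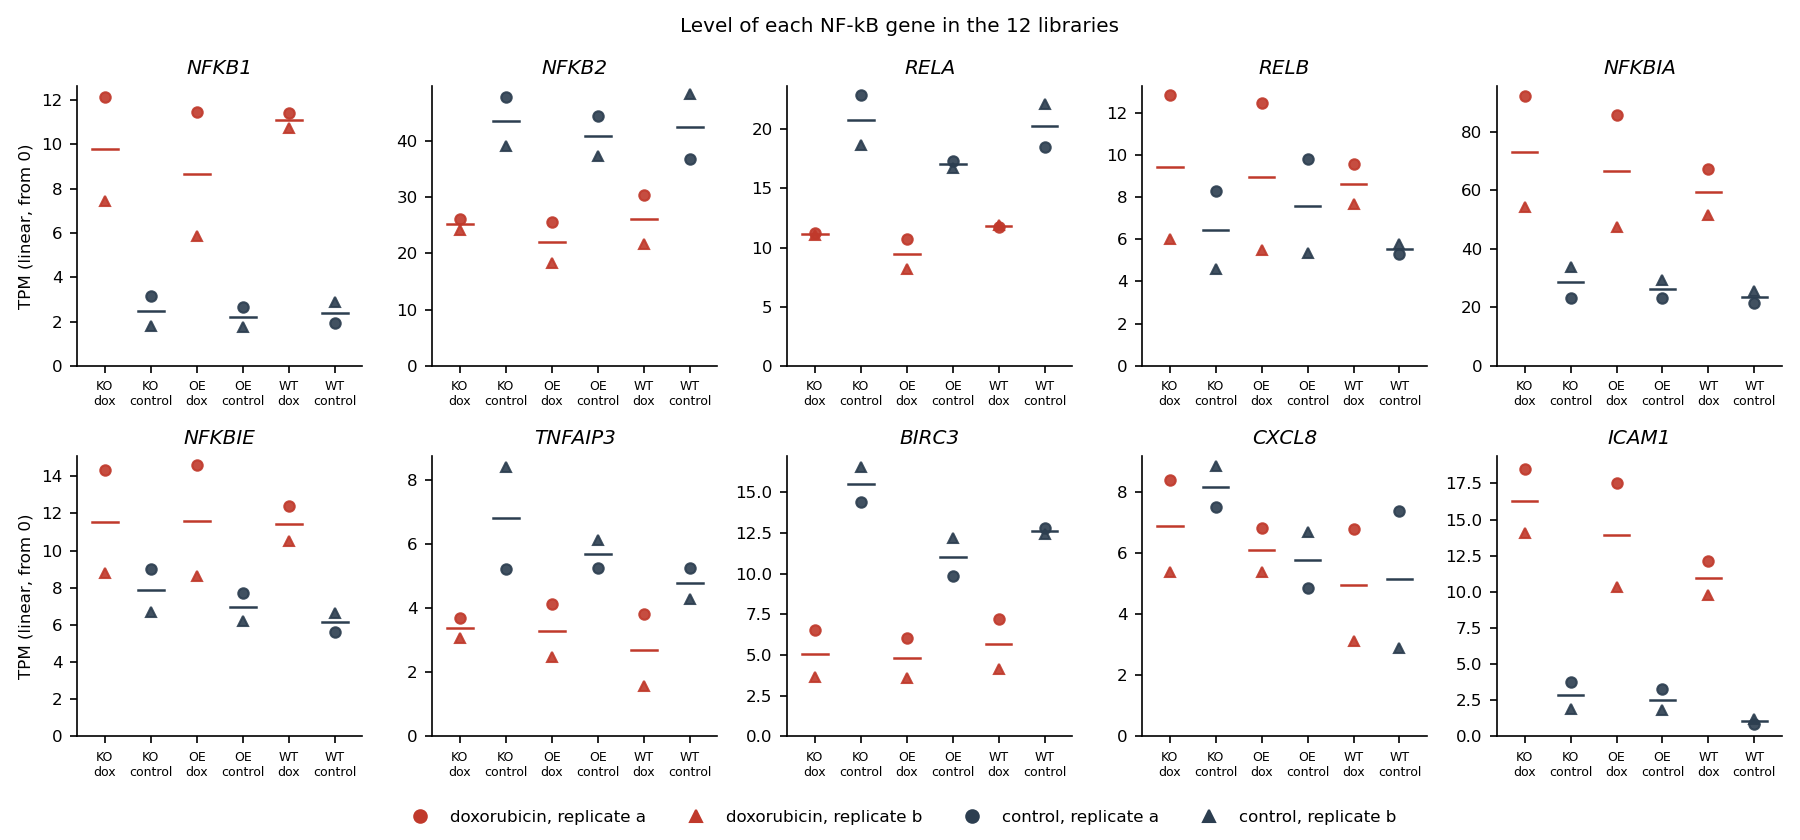
Level of each of the 10 genes in TPM on linear axes from 0, in KO, OE and WT cells with doxorubicin (red) or in control medium (dark blue). Points are single libraries, circles for replicate a and triangles for replicate b, and short lines are group means. The doxorubicin and control points of NFKB1, NFKB2, RELA, NFKBIA, TNFAIP3, BIRC3 and ICAM1 do not overlap; those of RELB, NFKBIE and CXCL8 do.

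Among the subunits, NFKB1 rose and NFKB2 and RELA fell. NFKB1 (ENSG00000109320, chromosome 4, 102501329 to 102617302, plus strand) encodes p105, the precursor of p50. With doxorubicin its level was 12.1 and 7.42 TPM in KO, 11.5 and 5.86 TPM in OE and 11.4 and 10.7 TPM in WT cells, replicate a first. In control medium the level was 3.16 and 1.79 TPM in KO, 2.65 and 1.75 TPM in OE and 1.91 and 2.87 TPM in WT cells. Every doxorubicin library was above every control library, and within each medium the groups of the 3 lines overlapped. The level averaged 9.83 ± 2.56 TPM with doxorubicin and 2.36 ± 0.615 TPM in control medium (SD, n = 6 each), a ratio of means of 4.18. On the log2(TPM + 1) scale the mean difference was 1.67 ± 0.20 (SE; limma adjusted p = 2.45e-05).

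NFKB2 (ENSG00000077150, chromosome 10, 102394110 to 102402529, plus strand), which encodes p100, the precursor of p52 and itself an inhibitor of RELB dimers, had the highest mean level of the 4 subunit genes. Doxorubicin libraries held 26.0 and 24.2 TPM in KO, 25.6 and 18.3 TPM in OE and 30.3 and 21.7 TPM in WT cells. Control libraries held 47.7 and 39.1 TPM in KO, 44.4 and 37.3 TPM in OE and 36.8 and 48.2 TPM in WT cells. The highest doxorubicin value stayed below the lowest control value, and the order of the lines could not be read, since their libraries overlapped in both media. NFKB2 fell by 0.78 ± 0.14 log2 units (SE; limma adjusted p = 0.000515), with a ratio of mean TPM of 0.576.

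RELA (ENSG00000173039, chromosome 11, 65653596 to 65663094, minus strand) encodes p65, the subunit that carries the main activation domain of canonical dimers. Its levels with doxorubicin were 11.3 and 11.0 TPM in KO, 10.8 and 8.15 TPM in OE and 11.8 and 11.9 TPM in WT cells. Those in control medium were 22.9 and 18.6 TPM in KO, 17.3 and 16.7 TPM in OE and 18.5 and 22.1 TPM in WT cells. In both media OE cells were lowest, without overlap with the next line, though with doxorubicin 10.8 TPM in OE came close to 11.0 TPM in KO cells. The share of all genes with such an order was not counted. OE minus WT was -0.236 ± 0.223 log2 units in control medium and -0.305 ± 0.223 with doxorubicin (SE), and was called in neither. No doxorubicin library of RELA reached a control library. It fell by 0.79 ± 0.13 log2 units (SE; limma adjusted p = 0.000238), to 10.8 ± 1.37 TPM with doxorubicin, against 19.4 ± 2.56 TPM in control medium (SD, n = 6 each).

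RELB (ENSG00000104856, chromosome 19, 45001430 to 45038198, plus strand), the non-canonical partner of p52, did not pass the test. It was at 12.9 and 6.01 TPM in KO, 12.4 and 5.49 TPM in OE and 9.56 and 7.66 TPM in WT cells with doxorubicin. Without the drug it was at 8.29 and 4.57 TPM in KO, 9.82 and 5.34 TPM in OE and 5.30 and 5.80 TPM in WT cells. The libraries of both media overlapped, and the gap between replicates was wide, with replicate a over replicate b by 2.14 times in KO and 2.27 times in OE cells with doxorubicin. The mean difference was 0.39 ± 0.24 log2 units (SE; limma adjusted p = 0.181), with a 95% interval of -0.13 to 0.91.

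Within each library the balance between the subunits was read as a ratio of TPM, chosen after the values were seen and given without a test. NFKB1 rose and RELA and NFKB2 fell, each without overlap, so these ratios had to separate the media. They describe the size of the shift and add no evidence to the single genes. The ratio of NFKB1 to RELA was 0.673 at the lowest, 0.938 at the median and 1.08 at the highest of the 6 doxorubicin libraries, against 0.0961, 0.117 and 0.153 in the 6 control libraries. NFKB1 to NFKB2 gave 0.307, 0.412 and 0.495 with doxorubicin, against 0.0458, 0.0557 and 0.0663 in control medium. NFKB1 was far below RELA in every control library, while with doxorubicin both transcripts were at like levels.

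**Figure D2:**
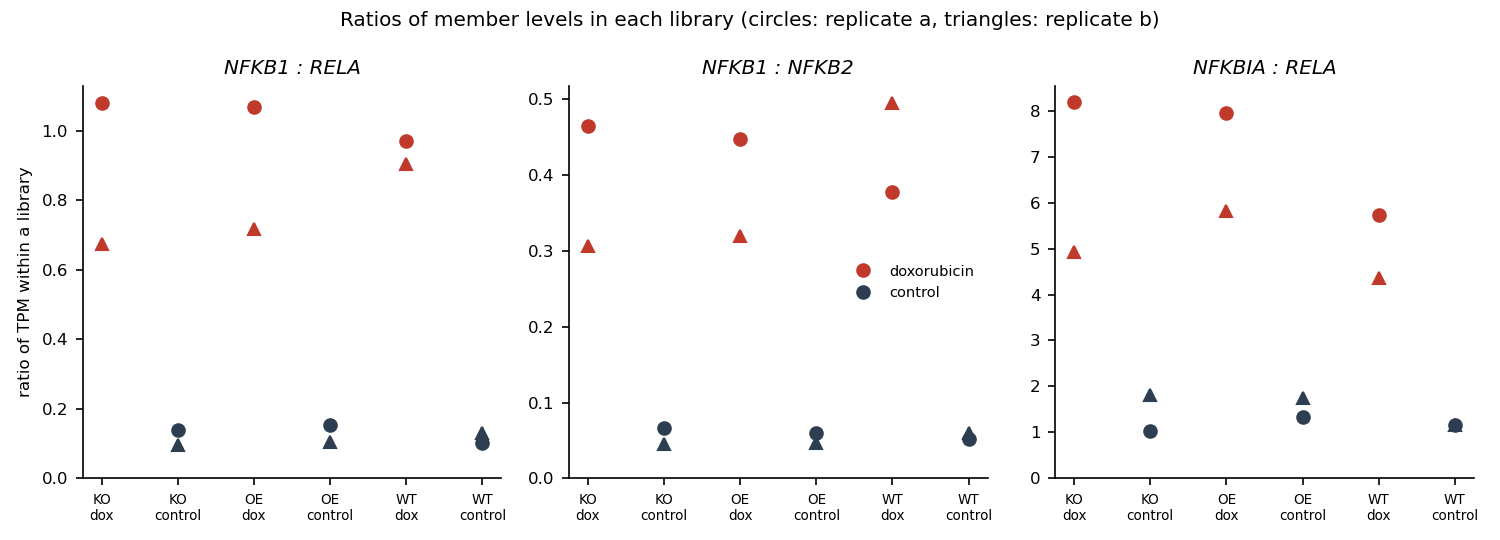
Ratios of TPM within each library for NFKB1 to RELA, NFKB1 to NFKB2 and NFKBIA to RELA, on linear axes from 0, for KO, OE and WT cells with doxorubicin (red) or in control medium (dark blue), circles for replicate a and triangles for replicate b. In all 3 panels each doxorubicin library lies above each control library, which follows from the separation of the single genes. The NFKB1 to RELA ratio runs from 0.673 to 1.08 with doxorubicin and from 0.0961 to 0.153 in control medium.

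Of the inhibitors, the IκB genes NFKBIA and NFKBIE rose and TNFAIP3 fell. NFKBIA (ENSG00000100906, chromosome 14, 35401511 to 35404749, minus strand) encodes IκBα, the fast feedback inhibitor of RELA dimers, and had the highest mean level of the 10 genes. With doxorubicin its TPM reached 92.0 and 54.3 in KO, 85.6 and 47.5 in OE and 67.3 and 51.6 in WT cells. The control libraries gave 23.3 and 33.8 TPM in KO, 23.1 and 29.2 TPM in OE and 21.5 and 25.4 TPM in WT cells. No library of one medium reached into the range of the other. NFKBIA rose by 1.29 ± 0.18 log2 units (SE; limma adjusted p = 8.71e-05), and mean TPM was 2.55 times as high with doxorubicin as in control medium. Set against RELA in the same library, its TPM ratio was 4.35 to 8.18 with doxorubicin, against 1.02 to 1.81 in control medium. This separation follows from the rise of NFKBIA and the fall of RELA.

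NFKBIE (ENSG00000146232, chromosome 6, 44258166 to 44265788, minus strand) encodes IκBε, a slower inhibitor of the same dimers. Its doxorubicin libraries were at 14.3 and 8.78 TPM in KO, 14.6 and 8.61 TPM in OE and 12.4 and 10.5 TPM in WT cells. Its control libraries were at 9.0 and 6.71 TPM in KO, 7.71 and 6.19 TPM in OE and 5.63 and 6.64 TPM in WT cells. Within each line doxorubicin libraries lay above control libraries except in KO cells, where doxorubicin replicate b was below control replicate a. The mean difference of 0.64 ± 0.18 log2 units (SE) passed the test (limma adjusted p = 0.00742), whereas that of no single line did. With median-ratio scaling NFKBIE was called in KO, OE and WT cells (limma adjusted p = 0.0385, 0.031 and 0.0128).

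TNFAIP3 (ENSG00000118503, chromosome 6, 137867188 to 137883312, plus strand) encodes A20, a ubiquitin-editing enzyme that shuts off signalling upstream of IκB kinase. It stood at 3.71 and 3.08 TPM in KO, 4.14 and 2.47 TPM in OE and 3.81 and 1.56 TPM in WT cells with doxorubicin. Cells in control medium had 5.22 and 8.40 TPM in KO, 5.27 and 6.13 TPM in OE and 5.27 and 4.28 TPM in WT. The ranges came close but did not overlap, with 4.14 TPM as the highest doxorubicin value and 4.28 TPM as the lowest control value. TNFAIP3 fell by 0.73 ± 0.20 log2 units (SE; limma adjusted p = 0.00656), again with no call in a single line, whereas limma-voom on the recovered reads called it in KO, OE and WT cells (adjusted p = 0.0486, 0.0471 and 0.0253). An antisense gene shares 95 of its 5051 exon bases.

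The target genes went separate ways: ICAM1 rose, BIRC3 fell and CXCL8 did not pass the test. ICAM1 (ENSG00000090339, chromosome 19, 10270835 to 10286615, plus strand) encodes the adhesion molecule that leukocyte integrins bind. Doxorubicin brought it to 18.5 and 14.0 TPM in KO, 17.5 and 10.3 TPM in OE and 12.2 and 9.77 TPM in WT cells, from 644 to 1257 reads a library. It was at 3.78 and 1.89 TPM in KO, 3.25 and 1.84 TPM in OE and 0.883 and 1.19 TPM in WT cells in control medium, from 38 to 138 reads. The lowest doxorubicin library was thus well above the highest control library. ICAM1 had the largest difference of the 10 genes, 2.27 ± 0.20 log2 units (SE; limma adjusted p = 2.07e-06), with 13.7 ± 3.66 TPM with doxorubicin and 2.14 ± 1.15 TPM in control medium (SD, n = 6 each). Antisense genes share its exons, AC011511.5 over 815 of 3706 bases, and because the strand setting of the counting is not given in the sources used here, their reads cannot be told apart from those of ICAM1.

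BIRC3 (ENSG00000023445, chromosome 11, 102317450 to 102339403, plus strand) encodes cIAP2, a ubiquitin ligase of the TNF receptor complex that blocks caspase activation. TPM values with doxorubicin were 6.52 and 3.64 in KO, 6.05 and 3.55 in OE and 7.22 and 4.14 in WT cells. TPM values in control medium were 14.4 and 16.6 in KO, 9.84 and 12.2 in OE and 12.8 and 12.5 in WT cells. All 6 doxorubicin values were below all 6 control values. BIRC3 fell furthest of the 10 genes, by 1.21 ± 0.18 log2 units (SE; limma adjusted p = 0.000143). Its TPM ratio to NFKBIA in the same library was 0.067 to 0.107 with doxorubicin, against 0.418 to 0.62 in control medium. This separation follows from the fall of BIRC3 and the rise of NFKBIA.

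CXCL8 (ENSG00000169429, chromosome 4, 73740506 to 73743716, plus strand) encodes interleukin 8, a neutrophil chemokine. Doxorubicin libraries had 8.41 and 5.40 TPM in KO, 6.82 and 5.39 TPM in OE and 6.80 and 3.122 TPM in WT cells. Control libraries had 7.50 and 8.87 TPM in KO, 4.85 and 6.71 TPM in OE and 7.37 and 2.91 TPM in WT cells, with 57 to 351 reads a library over both media. The media overlapped in every line, and the widest gap was between the WT control replicates, 2.54 times. The mean difference was -0.06 ± 0.23 log2 units (SE; limma adjusted p = 0.834), and its 95% interval ran from -0.55 to 0.43. The TPM ratio of ICAM1 to CXCL8 was 1.79 to 3.13 with doxorubicin, against 0.12 to 0.67 in control medium.

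Counted by overlap alone, 7 of the 10 genes had no doxorubicin library within the range of the control libraries (NFKB1, NFKBIA and ICAM1 higher; NFKB2, RELA, TNFAIP3 and BIRC3 lower), and 32.0% of all genes tested met the same condition, 15.7% higher and 16.3% lower. Taken line by line, the same 6 genes were called in each. NFKB1, NFKBIA and ICAM1 rose and NFKB2, RELA and BIRC3 fell in KO, in OE and in WT cells. The share of all genes called in the same direction in all 3 lines was not counted, so this agreement has no background beside it. Of all genes tested, 24.2% were called in KO cells (9.9% higher, 14.3% lower), 23.0% in OE cells (12.4% higher, 10.6% lower) and 32.2% in WT cells (19.6% higher, 12.6% lower). The last split depends on the scaling: with median-ratio scaling the median of all genes in WT cells was -0.01 instead of 0.17, and 3437 genes were higher and 3498 lower in place of 2994 and 1920; limma-voom called 3174 higher and 3146 lower. In KO cells 2702 were higher and 2234 lower with small RNAs left out of the total, in place of 1510 and 2185, and the median of all genes was 0.10 instead of -0.01. ICAM1 differed by 2.20 log2 units in KO, 2.06 in OE and 2.55 in WT cells (SE 0.34 each), NFKB1 by 1.62, 1.54 and 1.85 (SE 0.35 each) and NFKBIA by 1.30, 1.26 and 1.30 (SE 0.32 each). BIRC3 differed by -1.48 log2 units in KO, -1.08 in OE and -1.07 in WT cells (SE 0.32 each). RELA gave -0.84, -0.80 and -0.73 (SE 0.22 each) and NFKB2 gave -0.76, -0.88 and -0.69 (SE 0.25 each).

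**Figure D3:**
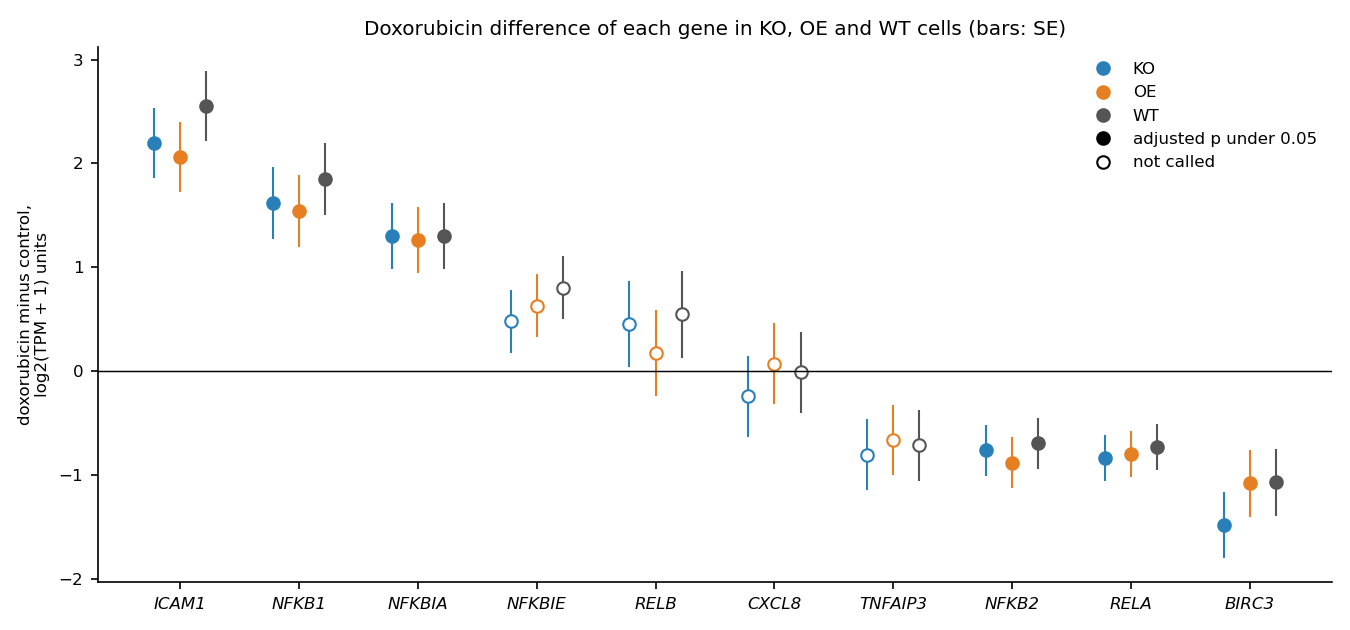
Difference between doxorubicin and control medium in log2(TPM + 1) units for each gene in KO (blue), OE (orange) and WT (grey) cells, with bars for the SE of the limma model; filled points had an adjusted p under 0.05 and open points did not. The same 6 genes are filled in all 3 lines, from ICAM1 at 2.06 to 2.55 down to BIRC3 at -1.48 to -1.07. The share of all genes called in all 3 lines was not counted.

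The calls within single lines rested on 2 libraries a group. Leaving a library out left a lone library in its group. The number called over all genes tested then fell in each line as well, except in OE cells without doxorubicin replicate b, where it rose. Whether the losses below go beyond this general drop was not tested. ICAM1 was called in each of the 3 lines whichever single library was left out. In KO cells the 6 genes called came to 3 without control replicate a, 2 without control replicate b or without doxorubicin replicate a, and 4 without doxorubicin replicate b. In OE cells they came to 2 without control replicate a, 1 without control replicate b, 4 without doxorubicin replicate a and 3 without doxorubicin replicate b. In WT cells they came to 2 without control replicate a and 3 without any other single library. NFKB2 and RELA lost their calls without any 1 of the 4 KO or WT libraries (adjusted p 0.0529 to 0.285) and without any OE library but doxorubicin replicate a (0.0798 to 0.134). NFKB1 lost its call without control replicate b or doxorubicin replicate a in KO (0.0711 and 0.056) and in OE cells (0.0913 and 0.0737). NFKBIA lost its call without control replicate a or doxorubicin replicate a in KO (0.0714 and 0.101), OE (0.0909 and 0.124) and WT cells (0.0755 and 0.0819), and without control replicate b in OE cells (0.0526). BIRC3 lost its call in KO cells without control replicate b (0.0583), and without control replicate a, control replicate b or doxorubicin replicate b in OE (0.0738, 0.187 and 0.133) and in WT cells (0.114, 0.0727 and 0.188). NFKBIE gained a call in OE cells without doxorubicin replicate b (0.0481). With variances taken without a trend, NFKB2 missed the threshold in KO (0.0529) and WT cells (0.0598), and with only the compared groups fitted NFKB2 and RELA missed it in KO (0.0615 and 0.0622) and RELA in OE cells (0.0914). Averaged over the lines, the number called was 8 whichever of the 12 libraries was left out.

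Replicate a lay above replicate b for many genes with doxorubicin. All 10 genes were higher in replicate a in KO and in OE cells, and 9 of 10 (all but RELA) in WT cells. Over all genes tested, 78.5% in KO, 91.9% in OE and 83.0% in WT cells were higher in replicate a, with median gaps of 0.26, 0.45 and 0.23 log2 units. The gap of RELB, 0.98 log2 units in KO and 1.05 in OE cells, was wider than these medians. In control medium 6 of 10 genes were higher in replicate a in KO cells, 6 in OE cells and 3 in WT cells. The shares over all genes tested were 68.5% in KO, 71.3% in OE and 33.3% in WT cells.

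SPARCLE KO and OE cells were each set against WT cells in the same medium, and both comparisons use the same WT libraries. None of the 10 genes was called in any of them. The median of all genes was 0.20 log2 units for KO minus WT and -0.04 for OE minus WT in control medium, and 0.01 and -0.12 with doxorubicin. In control medium KO minus WT differences ran from 0.02 to 0.87 log2 units (limma, SE 0.22 to 0.42), and 0.0918% of all genes were called. OE minus WT differences in control medium ran from -0.24 to 0.77 log2 units, with 0.118% of all genes called. With doxorubicin KO minus WT gave -0.20 to 0.52, with 0.295% of all genes called, and OE minus WT gave -0.39 to 0.32, with 0.315%. At an unadjusted p under 0.05, limma had 1 of the 10 genes (ICAM1) in each control-medium comparison and 0 in each doxorubicin comparison. Of the 15256 genes tested, 1090 for KO and 767 for OE were under it in control medium, and 523 and 737 with doxorubicin. By limma-voom on the recovered reads 0 of the 10 genes were called in all 4 comparisons.

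In control medium all KO and OE libraries of ICAM1 lay above both WT libraries, an order whose share over all genes was not counted. The WT libraries had 0.883 and 1.19 TPM of ICAM1 from 42 and 38 reads. Group means were 2.83 TPM in KO, 2.55 TPM in OE and 1.04 TPM in WT cells, and at such levels the added 1 TPM makes log2 differences smaller. KO minus WT was 0.87 ± 0.34 log2 units (SE, limma adjusted p = 0.625), with a 95% interval of 0.14 to 1.60. It was 0.51 to 1.23 when 1 library was left out and reached 1.30 over all alternatives. OE minus WT was 0.77 ± 0.34 log2 units (SE, limma adjusted p = 0.97), with a 95% interval of 0.05 to 1.5. It was 0.48 to 1.07 when 1 library was left out and reached 1.28 over all alternatives. With doxorubicin the differences were 0.52 ± 0.34 for KO minus WT and 0.28 ± 0.34 for OE minus WT (SE; limma adjusted p = 1.0 and 0.993). CXCL8 differed by 0.68 ± 0.39 log2 units in KO minus WT control cells (SE; limma adjusted p = 0.726), or 0.13 to 1.23 when 1 library was left out, and the intervals of all its differences from WT included 0.

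The difference between the lines in their doxorubicin response was tested as an interaction. KO minus WT responses ran from -0.41 to 0.004 log2 units over the 10 genes and OE minus WT responses from -0.49 to 0.08, with SEs of 0.32 to 0.59. An unadjusted p under 0.05 by limma was found for 194 (KO) and 150 (OE) of the 15256 genes tested and for none of the 10. No gene of the 10 was called by limma, limma-voom called 0, and 0.00655% of all genes were called in each interaction. The 95% intervals all included 0. For RELA they ran from -0.79 to 0.57 log2 units for KO and from -0.75 to 0.61 for OE, and for RELB from -1.37 to 1.18 for KO and from -1.65 to 0.90 for OE.

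**Figure D4:**
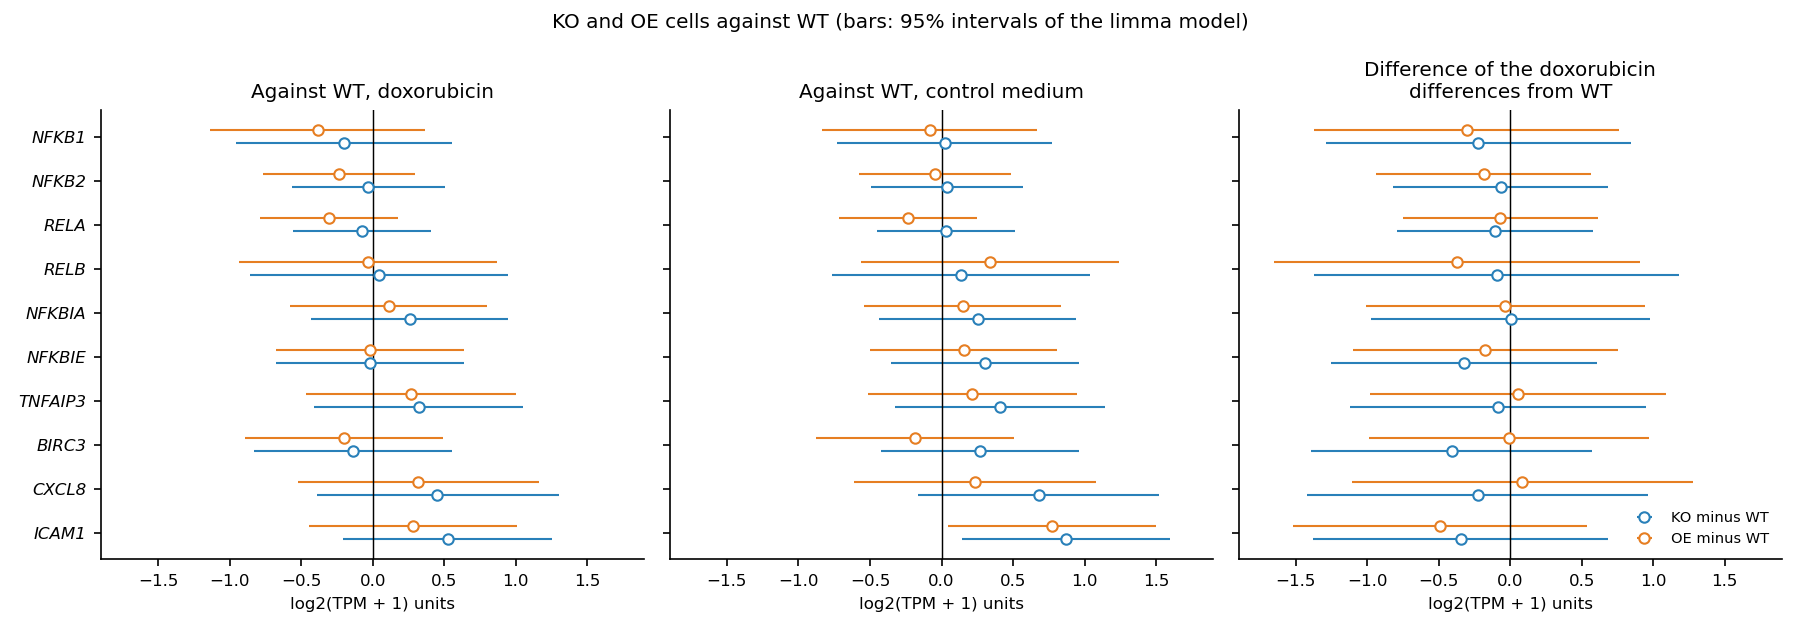
Differences in log2(TPM + 1) units with 95% intervals of the limma model for KO minus WT (blue) and OE minus WT (orange), with doxorubicin (left), in control medium (middle) and as the difference of the doxorubicin responses from that of WT (right). All points are open because none was called; the control-medium intervals of ICAM1 lie above 0 (0.14 to 1.60 for KO and 0.05 to 1.5 for OE) before adjustment for the number of genes.

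Other genes of the pathway were read from 4 lists written from textbook knowledge, in the same comparison of doxorubicin with control medium averaged over the lines, in which 58.0% of all genes were called (32.2% higher, 25.9% lower). A gene that reached the minimum of 1 TPM in 2 libraries of 1 medium only had entered the test through the medium where it was high, so those named are given by their levels and no call is read from them. The counts and shares called in each list and over all genes include such genes. Where a list held any, its counts without them are given as well. Among other subunits and inhibitors, 13 of 14 listed genes were tested; 2 rose, 3 fell and 8 did not pass (38.5% called, against 58.0% of all genes), and the list median was 0.03 log2 units against 0.09 for all genes. The A20-binding inhibitors TNIP2 and TNIP1 rose by 0.84 ± 0.16 and 0.64 ± 0.17 log2 units (SE). REL, which encodes the remaining subunit c-Rel, fell by 1.38 ± 0.16 log2 units to 1.81 to 3.25 TPM with doxorubicin, against 6.15 to 10.7 TPM in control medium. CYLD, a deubiquitinase that restrains the pathway, fell by 1.11 ± 0.15, and the atypical IκB gene NFKBIZ fell by 0.74 ± 0.17 log2 units. REL and CYLD were also called in each line alone.

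Of the 30 kinases and adaptors upstream of NF-κB, all of which were tested, 16 were called higher, 4 lower and 10 did not pass (66.7% called, against 58.0% of all genes), with a list median of 0.46 log2 units. Of the 20 called, 2 had entered through 1 medium. Of the 28 genes that reached the minimum in both media, 14 were called higher and 4 lower. PIDD1, a scaffold that links DNA damage to IKBKG, rose by 2.08 ± 0.34 log2 units (SE), at 5.16 to 29.1 TPM with doxorubicin, against 1.58 to 3.61 TPM in control medium. MYD88, the adaptor of Toll-like and interleukin-1 receptors, rose by 1.49 ± 0.19, its kinase IRAK1 by 1.48 ± 0.29 and the TNF receptor adaptor TRADD by 1.02 ± 0.19 log2 units. The IκB kinase-related gene IKBKE, which entered through doxorubicin libraries alone, was at 3.72 to 7.04 TPM with doxorubicin, against 0.188 to 0.915 TPM in control medium. OTULIN, which removes linear ubiquitin chains, fell by 0.89 ± 0.16, and MAP3K14, the kinase of the non-canonical arm, by 0.84 ± 0.19 log2 units. The ubiquitin ligase genes BIRC2 and TRAF6 fell by 0.61 ± 0.13 and 0.51 ± 0.13 log2 units.

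For receptors and cytokines 13 of 22 listed genes were tested; 3 were called higher, 5 lower and 5 did not pass (61.5% called, against 58.0% of all genes), and the list median was -0.04 log2 units. Of the 8 called, 3 had entered through 1 medium: TLR3, TNFRSF11A and IL18R1. Of the 9 genes that reached the minimum in both media, 2 were called higher and 3 lower. TLR3, a receptor of double-stranded RNA, was at 1.92 to 8.32 TPM with doxorubicin, against 0.0483 to 0.312 TPM in control medium. TNFRSF11A, the receptor RANK, was at 0.271 to 0.592 TPM with doxorubicin, against 1.63 to 2.46 TPM in control medium. IL18R1, an interleukin-18 receptor gene, was at 0.21 to 1.07 TPM with doxorubicin, against 1.27 to 2.05 TPM in control medium. LTBR, the lymphotoxin beta receptor, rose by 1.84 ± 0.19 (SE), and the TNF receptor gene TNFRSF1A by 0.97 ± 0.22 log2 units. The interleukin-1 co-receptor IL1RAP fell by 1.35 ± 0.14 log2 units, and the ligand gene TNFSF12 and IL1R1 fell by 0.63 ± 0.16 and 0.52 ± 0.18 log2 units.

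Among other target genes 32 of 48 listed were tested; 17 were called higher, 5 lower and 10 did not pass (68.8% called, against 58.0% of all genes), with a list median of 0.47 log2 units. Of the 22 called, CSF1 and IL32 had entered through 1 medium. Of the 27 genes that reached the minimum in both media, 15 were called higher and 5 lower. TNFAIP2 rose by 2.55 ± 0.26, the coagulation initiator gene F3 by 2.31 ± 0.18, the cytokine gene LIF by 2.19 ± 0.27 and the siderophore-binding LCN2 by 2.01 ± 0.22 log2 units (SE). The cytokine gene CSF1 was at 2.58 to 10.3 TPM with doxorubicin, against 0.174 to 0.734 TPM in control medium. F3 was at 66.5 to 136 TPM with doxorubicin, against 15.6 to 25.2 TPM in control medium. GADD45B, which restrains JNK signalling, fell by 2.11 ± 0.17, JUNB, a subunit of AP-1, by 1.46 ± 0.17, and KLF6 by 1.36 ± 0.16 log2 units. The phosphatase gene DUSP5 and the proteoglycan gene SDC4 fell by 0.88 ± 0.20 and 0.44 ± 0.17 log2 units.

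IL32, a cytokine gene, was the single gene of the 4 lists with an adjusted p under 0.05 in a comparison with WT cells. Only its 2 WT doxorubicin libraries took it past the filter on low values, so its levels are given as a description, with no test. With doxorubicin it was at 0.108 and 0.0744 TPM in KO and 0.12 and 0.132 TPM in OE cells, against 1.65 and 3.44 TPM in WT cells. In control medium KO and OE cells had at most 0.111 TPM, against 0.222 and 0.726 TPM in WT cells.

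**Figure D5:**
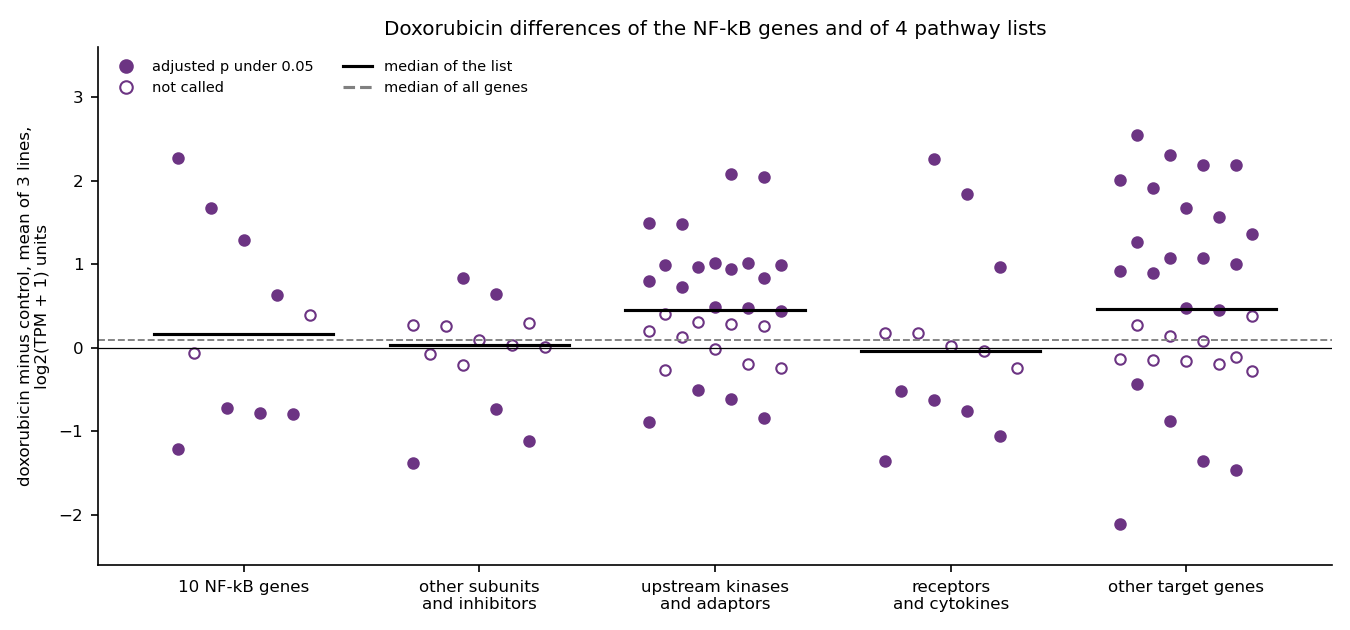
Difference between doxorubicin and control medium averaged over the 3 lines, in log2(TPM + 1) units, for the 10 NF-κB genes and 4 pathway lists; each point is a gene, filled where the limma adjusted p was under 0.05, genes that entered through 1 medium included. Solid bars are list medians, from -0.04 for receptors and cytokines to 0.47 for other target genes, and the dashed line is the median of all genes, 0.09.

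The genes of most like pattern were taken as those with the highest Pearson r of log2(TPM + 1) over the 12 libraries, among 12669 protein-coding and long non-coding genes. For NFKB1 these were TNFRSF10B (r = 0.997), CIRBP (0.996) and METTL8 (0.996), and for ICAM1 they were ST6GALNAC2 (0.994), ADGRE2 (0.993) and ABCC2 (0.992). NFKBIA came closest to BLCAP (0.983), FAH (0.981) and HMOX1 (0.979), NFKBIE to PPM1F (0.991), and RELB to GAS2L1 (0.964). The genes that fell had TIMELESS for NFKB2 (0.983), BCL6 for RELA (0.984), SBSN for TNFAIP3 (0.957) and LCA5 for BIRC3 (0.988) as their nearest. CXCL8 had the weakest nearest gene, CD274 (0.891). These values are descriptions: the libraries share 1 split by doxorubicin, which any gene that moves with it follows.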

How the data were processed

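Total RNA libraries of HCT116 cells were prepared with a stranded kit, per the labels' protocols. Alignment and counting tools were HISAT2 2.0.4, featureCounts and SAMtools 1.7, beside edgeR 3.12.1 under R 3.3.3, on build hg38, per the submitters' processing notes; the annotation, strand setting and filter are not given in the sources used here. The deposited values are log2 TPM computed by the authors, per the file headers; 2 to the power of these values gives the same sum in every library. Symbols and coordinates came from GENCODE release 29 for 16564 of 16676 genes. SPARCLE was matched by its RefSeq gene number.

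Whole reads were recovered from TPM and exon length for 15182 genes, within 0.05 reads in every library. Tests used log2(TPM + 1), a minimum of 1 TPM in 2 or more libraries, and 1 limma 3.58.1 model (R 4.3.3, eBayes with trend) of 6 group means over 12 libraries, with 6 residual degrees of freedom. Each of 10 comparisons was adjusted by Benjamini-Hochberg over all genes tested, and genes were called at an adjusted p under 0.05. All 10 genes were named; of each pathway list up to 5 called genes in each direction with the largest difference, and any called against WT. Alternatives changed the pseudocount, the filter, the scaling, the samples fitted, the replicate block, the variance trend, the test (limma-voom on recovered reads) or the libraries. The code was tested on simulated data. The genes, lists and motifs were chosen with earlier results of these data known.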

Additional observations from a re-analysis of the deposited data

How the results depend on the processing

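Doxorubicin against control medium averaged over the 3 lines called 8 of the 10 genes, and between 7 and 8 under every alternative except one: requiring a difference of at least 1 log2 unit as well left 4. In single lines the 6 calls became 2 to 4 in KO, 1 to 4 in OE and 2 to 3 in WT cells when 1 library was left out, where a lone library is assumed to vary like the other groups. They became 7 in KO, 7 in OE and 8 in WT cells with median-ratio scaling, and 7, 8 and 8 with limma-voom. Over all genes, median-ratio scaling called 5671 in place of 3695 in KO and 5957 in place of 3510 in OE cells, limma-voom 5462 in OE cells, and the fit of the compared groups alone 2431 in KO cells. A mean of at least 5 TPM left fewer genes tested and called 2353 in KO cells, 2316 in OE cells and 5434 in place of 8850 on average. Of the 10 genes that filter left 9, without TNFAIP3 at a mean of 4.45 TPM, and 7 of the 9 were called on average. The minimum of 1 log2 unit left 2288 in KO, 2239 in OE, 3165 in place of 4914 in WT cells and 2689 on average. Without 1 library of the line, 1167 to 3202 genes were called in KO, 944 to 3787 in OE and 1820 to 3726 in WT cells. Against WT the counts over all genes ran, over all alternatives, from 3 to 37 for KO (14 as reported) and from 5 to 44 for OE (18) in control medium, and from 9 to 91 for KO (45) and from 12 to 129 for OE (48) with doxorubicin. The letters a and b are not stated to mark a shared batch: deviations of same-lettered libraries correlated at over 0.1 in 7 of 15 pairs of groups (-0.389 to 0.81). The replicate block gave 6 calls in KO, 6 in OE, 7 in WT cells and 8 on average, and 0 against WT. KO or OE against WT and the interactions kept 0 calls under all alternatives run. Signs changed for values that had not been called. With small RNAs left out, CXCL8 was 0.040 in WT cells and 0.024 on average; in OE cells it was -0.042 with median-ratio scaling and -0.065 with limma-voom. When 1 library was left out, CXCL8 ran from -0.56 to 0.54 in WT, -0.52 to 0.039 in KO and -0.13 to 0.27 in OE cells and from -0.24 to 0.12 on average. For OE minus WT it ran from -0.32 to 0.78 in control medium and from -0.14 to 0.78 with doxorubicin, and for KO minus WT from -0.0077 to 0.91 with doxorubicin. RELB ran from -0.038 to 0.95 in KO and -0.35 to 0.70 in OE cells, and ICAM1 for OE minus WT with doxorubicin from -0.073 to 0.64. The cause was not tested. Over the 48 gene-level results, 611 of 690 values kept their direction and their side of the threshold.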
